A study of Danio rerio with 2 samples.

Results

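Oxidative phosphorylation subunits were followed in the adult ovaries of *sox3* knockout and wild type zebrafish. The members were taken by symbol from the deposited table. They are the 13 protein genes of the mitochondrial genome and the nuclear genes named ndufa, ndufb, ndufc, ndufs and ndufv, sdha to sdhd, uqcr, cox4 to cox8 and atp5, with assembly factors left out. This gave 106 of 22328 listed genes, 13 encoded in mitochondria and 93 in the nucleus. The study compared 1 ovary library of *sox3*-/- fish with 1 ovary library of *sox3*+/+ fish, both of the AB strain and adult, each made from the pooled RNA of several fish and selected for poly(A) RNA with oligo(dT). The knockouts carry frame-shift deletions made with CRISPR/Cas9 in every cell. Which of the mutant lines gave the RNA is not given in the sources used here.

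Mitochondria make ATP with 5 enzyme complexes of the inner membrane. Complex I takes electrons from NADH and complex II takes them from succinate, complex III passes them to cytochrome c, and complex IV gives them to oxygen. Complexes I, III and IV pump protons as they do so, and complex V, the ATP synthase, lets the protons flow back and makes ATP. The mitochondrial genome encodes the membrane core of complexes I, III, IV and V, while all of complex II and most subunits of the others come from nuclear genes. Oocytes carry very many mitochondria, which the embryo inherits.

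Each gene has 1 FPKM value per library, that is, fragments scaled to the length of the transcript and to the size of the library. Levels can thus be set side by side between genes only roughly. With 1 library per genotype there was no spread between fish to test against. No p-value is given, and all differences are descriptions of these 2 libraries. They are written as log2 ratios of KO over WT with a pseudocount of 0.1 FPKM, so the ratios of low genes are understated. A gene was counted as lower or higher where it differed over 1.4-fold, the fold used in the study, and reached 1 FPKM in either library. The study also set a limit on the false discovery rate, which was not applied here, so the counts are not those of the study. The reads behind a value are not in the table, so the counting error of a gene is unknown, and values near 1 FPKM carry the most doubt. The targeted gene *sox3* (ENSDARG00000053569) stood at 2.16 FPKM in the library labelled KO and 1.18 FPKM in the library labelled WT. RT-qPCR in the study had it the other way round, lower in knockout ovaries, and the study proposes decay of the mutant transcripts. The reason for the mismatch with these libraries was not tested. The aromatase gene *CYP19A1*, which RT-qPCR in the study had lower in knockouts, stood at 1.12 FPKM in the library labelled KO and 2.04 FPKM in the library labelled WT. As these 2 genes point opposite ways, the libraries are called by their labels, and every direction below is that of the labels. Among markers of the cells an ovary sample can hold, the 7 oocyte genes found summed to 2909.8 FPKM under the KO label and 2993 FPKM under the WT label. This direction was set by *zp3b*, at 978 FPKM under the KO label and 1099.7 FPKM under the WT label. Without it the other 6 summed to 1931.7 FPKM under the KO label and 1893 FPKM under the WT label. None of the 7 passed 1.4-fold, where 17.5% of all genes at 1 FPKM or more were lower and 15.1% higher. The 10 granulosa and theca genes summed to 60.6 FPKM under the KO label and 49.7 FPKM under the WT label, a direction set by the androgen enzyme gene *CYP17A1*, at 49.0 FPKM under the KO label and 30.7 FPKM under the WT label. Without it the other 9 summed to 11.6 FPKM under the KO label and 18.9 FPKM under the WT label. Of the 6 genes of this list at 1 FPKM or more, 4 were over 1.4-fold lower (66.7%, against 17.5% of all genes at that level). Of the same 6, 1 was higher (16.7%, against 15.1%), and their median log2 ratio was -0.70. The 4 were *STAR*, which brings cholesterol to steroid synthesis (0.46 FPKM under the KO label, 1.88 FPKM under the WT label), the granulosa factor gene *FOXL2* (1.47 FPKM under the KO label, 3.61 FPKM under the WT label), *CYP19A1* and *gsdf* (4.36 FPKM under the KO label, 6.62 FPKM under the WT label). The receptor genes *FSHR* and *lhcgr* were at 0.13 FPKM or less in both libraries. Red blood cell genes summed to 25.4 FPKM under the KO label and 14.65 FPKM under the WT label over 5 genes. Most of this was *hbaa1*, and the other 4 summed to 2.36 FPKM under the KO label and 1.85 FPKM under the WT label. Leukocyte genes summed to 3.49 FPKM under the KO label and 2.65 FPKM under the WT label over 3 genes. That direction was set by *lyz*, at 1.48 FPKM under the KO label and 0.49 FPKM under the WT label. *CORO1A* was nearly level, at 1.58 and 1.52 FPKM under the KO and WT labels. *ptprc* had the opposite direction, at 0.43 and 0.64 FPKM under the KO and WT labels. Muscle genes summed to 11.3 FPKM under the KO label and 10.9 FPKM under the WT label over 4. The direction of the muscle sum was set by *TNNT3*, at 9.12 FPKM under the KO label and 6.61 FPKM under the WT label. Without *TNNT3* the other 3 summed to 2.15 FPKM under the KO label and 4.31 FPKM under the WT label. Liver and yolk genes summed to 0.42 FPKM under the KO label and 0.72 FPKM under the WT label over 3.

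All 13 mitochondrially encoded genes had a lower level under the KO label, and 12 of them by over 1.4-fold. Their log2 ratios had a median of -0.78 and ran between -1.21 and -0.40. Over all 13455 genes at 1 FPKM or more, the median was -0.02, 52.2% were below 0 and 17.5% were over 1.4-fold lower. Among the 396 genes with a mean of 200 FPKM or more, a level that every one of the 13 reaches, 10.1% were over 1.4-fold lower, which is 40 genes, and 12 of these 40 are mitochondrially encoded. Of the same 396 genes, 65.2% had a log2 ratio below 0, and their median was -0.07. The 13 genes together took 1.35% of the FPKM sum of all genes under the KO label, against 2.31% under the WT label. The nuclear members took 1.24% and 1.37% under the KO and WT labels. In a bulk sample, fewer mitochondria-rich cells and less of these transcripts per cell cannot be told apart. With 1 library per genotype, a difference between the 2 preparations in RNA quality or oligo(dT) capture cannot be told apart from these. The part of the marker genes above in the differences between the libraries was not tested.

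Of the 13, the pair that encodes subunits of complex V differed most. *mt-atp8* (ENSDARG00000063910), which encodes a small membrane subunit, had 1209.9 FPKM under the KO label and 2801 FPKM under the WT label. *MT-ATP6* (ENSDARG00000063911), which encodes the subunit through which protons pass, had 675 FPKM under the KO label and 1549 FPKM under the WT label. These 2 alone of the 13 were at least 2-fold lower. Their reading frames overlap, and in vertebrates both are read from 1 shared mRNA. The level of *mt-atp8* over that of *MT-ATP6* was 1.79 under the KO label and 1.81 under the WT label, so the ratio within the pair was nearly the same in both libraries. As both are read from 1 mRNA, such unequal values show that FPKM compares only roughly between genes.

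The ratios of the complex IV core genes were spread more widely than those of complex I. *MT-CO1* (ENSDARG00000063905), the catalytic subunit with haem and copper, had 1351 FPKM under the KO label and 1787 FPKM under the WT label. Its log2 ratio of -0.40 was the nearest to 0 of the 13 and the only one inside 1.4-fold. *MT-CO2*, which takes electrons from cytochrome c, had 984 FPKM under the KO label and 1653 FPKM under the WT label. *MT-CO3*, the third core subunit, had 734 FPKM under the KO label and 1239 FPKM under the WT label. *MT-CO2* and *MT-CO3* had log2 ratios of -0.75 each. Of the 396 abundant genes, which include the 13, 50 had a lower ratio than *MT-CO1* and 11 a lower ratio than *mt-atp8*. All the other mitochondrially encoded genes are among the 50.

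The 7 mitochondrial genes of complex I, all of them core subunits of its membrane arm, lay closer together, with log2 ratios between -0.85 and -0.61. *MT-ND1* had 269 FPKM under the KO label and 470.2 FPKM under the WT label, and *MT-ND2* had 326 FPKM under the KO label and 588 FPKM under the WT label. *mt-nd4l* had 386 FPKM under the KO label and 692 FPKM under the WT label. *MT-ND4*, whose frame overlaps that of *mt-nd4l*, had 300.2 FPKM under the KO label and 535 FPKM under the WT label. The level of *mt-nd4l* over *MT-ND4* was 1.28 under the KO label and 1.29 under the WT label, as close as in the *mt-atp8* and *MT-ATP6* pair. *MT-ND3* was the least abundant of the 13, at 161 FPKM under the KO label and 246 FPKM under the WT label, and its ratio was the nearest to 0 in complex I. *MT-ND5* had 203 FPKM under the KO label and 348 FPKM under the WT label. *MT-ND6*, which lies on the opposite strand to the other protein genes, had 291 FPKM under the KO label and 471 FPKM under the WT label. Strand use in the counting is not given in the sources used here, so reads from the opposite strand cannot be told apart from those of *MT-ND6*. Nuclear copies of mitochondrial sequence may also share reads with these genes. For complex III the mitochondrial genome encodes 1 subunit, cytochrome b, and *MT-CYB* had 561 FPKM under the KO label and 846 FPKM under the WT label, a log2 ratio of -0.59.

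**Figure D1:**
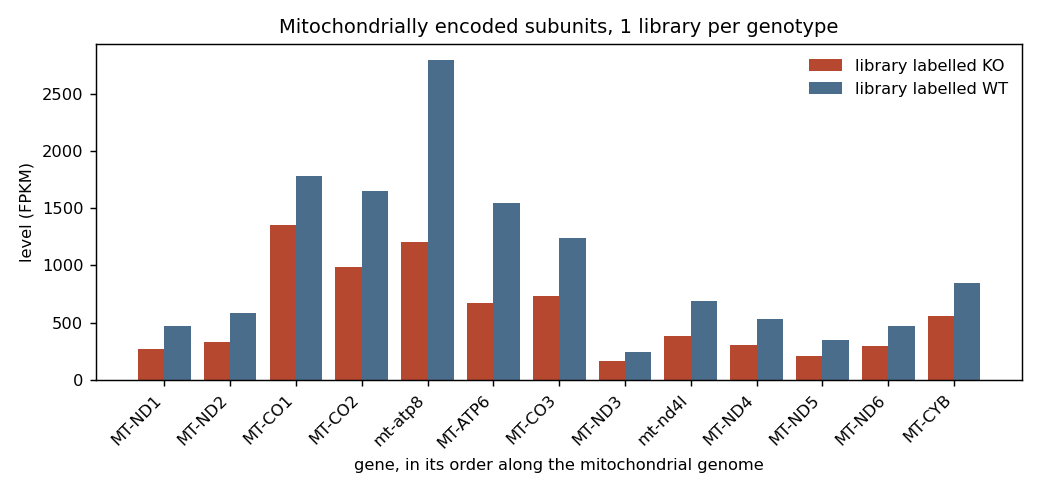
Level in FPKM (vertical axis) of the 13 mitochondrially encoded genes in their order along the mitochondrial genome, with 1 bar for the library labelled KO and 1 for the library labelled WT. Every KO bar is shorter, and the gap is widest for *mt-atp8* (1209.9 FPKM under the KO label, 2801 FPKM under the WT label) and *MT-ATP6*.

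Along the mitochondrial genome the ratios followed no single slope. In the RefSeq order of the protein genes, *MT-CO1* and *MT-CO2* stand just before *mt-atp8* and *MT-ATP6*, and *MT-CO3* just after them. The pair with the lowest ratios, -1.21 and -1.20, thus lies between *MT-CO2* and *MT-CO3* at -0.75 each. *MT-CYB*, the last of the order, was at -0.59, and *MT-ND1*, the first, at -0.81. Each strand of the genome is read as a long precursor that is cut into the single mRNAs, so these levels are not independent of each other.

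The 93 nuclear members differed far less. Of these, 87 reached 1 FPKM in either library, with a median log2 ratio of -0.19 and quartiles of -0.32 and -0.03. Of the 87, 11 were over 1.4-fold lower (12.6%), below the 17.5% of all genes, and 2 were higher (15.1% of all genes). Low genes vary more, so the 76 nuclear members with a mean of 20 to under 500 FPKM were also set beside all 4891 genes at that level. Of the 76, 7 were over 1.4-fold lower (9.21%) against 6.09% of genes at that level, and 1 was higher, against 5.83%. Of the 87, 67 had a log2 ratio under 0, which is 77.0% against 52.2% of all genes, and among the 76 the share was 77.6% against 52.8% at that level. No test stands behind this contrast, since each genotype has 1 library. The subunits may also be regulated together, so they cannot be taken as independent.

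**Figure D2:**
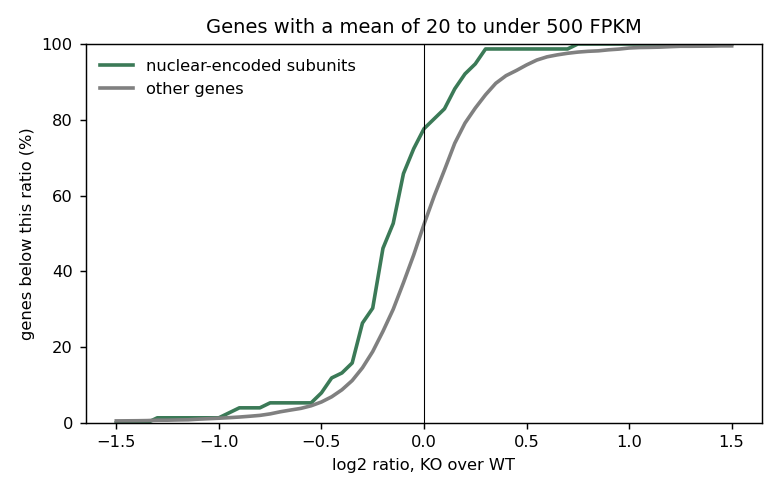
Percent of genes (vertical axis) whose log2 ratio of KO over WT lies below the value on the horizontal axis, for nuclear-encoded subunits and for other genes with a mean of 20 to under 500 FPKM. The curve of the subunits lies to the left for most of its length, with 77.6% of subunits and 52.4% of other genes below 0.

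By complex, the median log2 ratio was -0.31 over 16 subunits of complex IV, -0.27 over 4 of complex II, -0.20 over 20 of complex V, -0.14 over 39 of complex I and -0.02 over 8 of complex III. The summed level of the nuclear members was 0.83 times the WT level under the KO label for complex IV, 0.84 for complex II, 0.87 for complex I, 0.89 for complex V and 0.90 for complex III. The median of complex III was 0.01 with median of ratios scaling and with equal sums over nuclear genes, it stayed just below 0 with the trimmed mean scaling and with centring, and the mean was 0.02, so its sign is not settled.

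**Figure D3:**
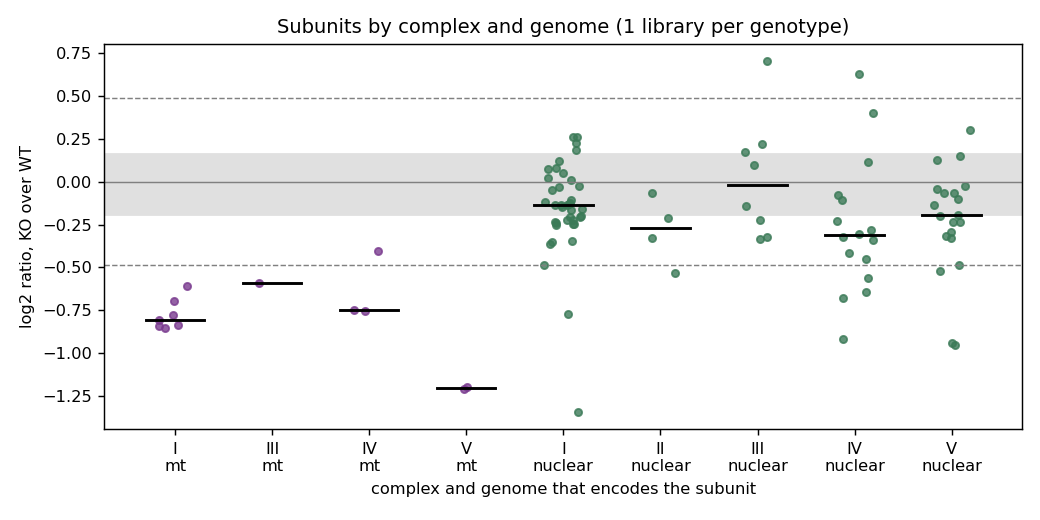
Log2 ratio of KO over WT (vertical axis) for each subunit at 1 FPKM or more, by complex and by the genome that encodes it. Points are genes, black lines are medians, dashed lines mark 1.4-fold and the grey band holds the middle 50% of all genes with a mean of 20 to under 500 FPKM. The 13 mitochondrial points all lie below the band, at -0.40 or lower, while nuclear medians run between -0.31 and -0.02.

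Within each library, the median FPKM of the mitochondrial subunits of a complex was several times that of its nuclear ones. This ratio was smaller under the KO label in every complex that has both. For complex I the median mitochondrial subunit stood at 7.02 times the median nuclear subunit under the KO label and 10.5 times under the WT label. For complex IV the values were 14.4 times under the KO label and 20.7 times under the WT label. Complex V had the largest gap between the libraries, at 9.81 times under the KO label and 18.4 times under the WT label, and complex III, with a single mitochondrial gene, had 7.80 and 11.8 times under the KO and WT labels. Such ratios use values of 1 library only, so the scaling between the libraries does not enter them. They set the FPKM of different genes side by side, so their size is a rough measure of abundance.

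**Figure D4:**
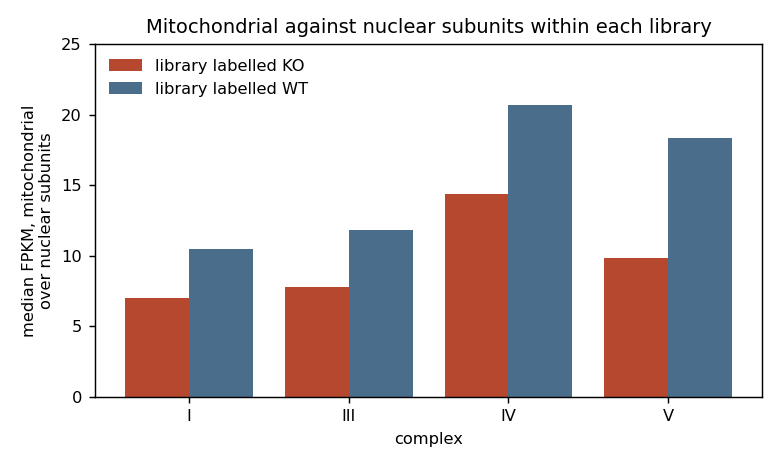
Median FPKM of the mitochondrially encoded subunits divided by the median FPKM of the nuclear-encoded subunits at 1 FPKM or more (vertical axis), by complex, with 1 bar per library. The KO bar is the shorter one in all 4 complexes, with 9.81 against 18.4 in complex V.

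In complex I, the 7 nuclear core subunits, which hold the flavin, the iron-sulphur clusters and the quinone site, had a median log2 ratio of 0.05 and ran between -0.17 and 0.26. Of these, 4 were above 0. *NDUFS8* had 57.1 FPKM under the KO label and 47.6 FPKM under the WT label, and *NDUFS3* had 34.1 FPKM under the KO label and 29.9 FPKM under the WT label. *NDUFV1*, which binds NADH and the flavin, was nearly level, at 53.7 FPKM under the KO label and 54.8 FPKM under the WT label. Over the 32 accessory members the median was -0.18 and 26 were below 0, where 52.2% of all genes at 1 FPKM or more lay. This division into core and accessory subunits was made after the values were known. *NDUFS6* (ENSDARG00000056583), an accessory subunit of the NADH-oxidising arm, stood farthest from the rest, at 65.1 FPKM under the KO label and 165 FPKM under the WT label. Its log2 ratio of -1.34 made it the lowest of the 100 members at 1 FPKM or more. With the pseudocount of 0.1 FPKM it was also the only nuclear one of these at least 2-fold lower. The complex IV gene *COX4I2*, at 0.8 FPKM under the KO label and 1.6 FPKM under the WT label, lay at the 2-fold line. It was inside that line only because of the pseudocount. *NDUFB6*, of the membrane arm, had 21.95 FPKM under the KO label and 37.6 FPKM under the WT label. The accessory gene *ndufa5* had 31.3 FPKM under the KO label and 43.9 FPKM under the WT label, and lay just past 1.4-fold. In the other direction, the accessory genes *NDUFS5* and *ndufc2* had 76.6 and 32.6 FPKM under the KO label and 64.0 and 27.8 FPKM under the WT label. *NDUFA1* had 79.8 FPKM under the KO label and 93.15 FPKM under the WT label. By the mean of both libraries, the most abundant nuclear gene with a complex I name was *NDUFA4*. It had 136 FPKM under the KO label and 149 FPKM under the WT label, where *NDUFS6* was higher. The mammalian product of *NDUFA4* has been assigned to complex IV.

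The 4 subunits of complex II, which is also an enzyme of the citric acid cycle, were all lower under the KO label. Of all genes at 1 FPKM or more, 52.2% were below 0. *SDHC*, a membrane anchor that helps bind haem, was the only one of the 4 past 1.4-fold (25%, against 17.5% of all genes lower). It had 30.8 FPKM under the KO label and 44.7 FPKM under the WT label. The second anchor gene, *SDHD* (ENSDARG00000030139), had 16.8 FPKM under the KO label and 21.1 FPKM under the WT label. *SDHA*, which carries the flavin and oxidises succinate, had 52.3 FPKM under the KO label and 60.6 FPKM under the WT label. *SDHB*, the iron-sulphur subunit, had 44.2 FPKM under the KO label and 46.2 FPKM under the WT label. The anchors thus had lower ratios than the catalytic pair, over very few genes.

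The 8 nuclear subunits of complex III among the members, which leave out *CYC1*, had 4 ratios below and 4 above 0. This is 50% below 0, against 52.2% of all genes at 1 FPKM or more. *UQCRFS1* (ENSDARG00000007745), the Rieske iron-sulphur protein, had 24.8 FPKM under the KO label and 15.2 FPKM under the WT label. Its log2 ratio of 0.70 was the highest of the members at 1 FPKM or more. The core protein genes went different ways. *UQCRC1* had 67.6 FPKM under the KO label and 58.1 FPKM under the WT label, and *uqcrc2a* had 22.0 FPKM under the KO label and 19.5 FPKM under the WT label, but *UQCRC2*, the more abundant of the UQCRC2 pair, had 55.2 FPKM under the KO label and 60.9 FPKM under the WT label. The small subunits differed in direction as well. *UQCR10* had 218 FPKM under the KO label and 276 FPKM under the WT label, *UQCRH* had 76.2 FPKM under the KO label and 95.3 FPKM under the WT label, and *UQCRQ* had 82.5 FPKM under the KO label and 96.4 FPKM under the WT label. *UQCRB* had 87.8 FPKM under the KO label and 81.9 FPKM under the WT label. None of these passed 1.4-fold, where 17.5% of all genes at 1 FPKM or more were lower and 15.1% higher.

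In complex IV the nuclear subunits surround the mitochondrial core, and several have isoforms for different tissues. Of 16 subunits at 1 FPKM or more, 13 were below 0 (81.2%, against 52.2% of all genes at that level). Over 1.4-fold, 4 were lower (25%, against 17.5%) and 1 was higher (against 15.1% of all genes). By the mean of both libraries, the most abundant were *cox6a1*, *cox6c* and *COX7C*. They had 183, 169.9 and 132 FPKM under the KO label and 225, 199 and 165 FPKM under the WT label. Under the WT label *cox6b2* was above *COX7C*, at 166.8 FPKM. All 4 members past 1.4-fold in the lower direction were at low levels. *cox8a* had 8.63 FPKM under the KO label and 13.9 FPKM under the WT label, *cox8b* 2.65 and 3.96 FPKM under the KO and WT labels, *cox6b1* 1.56 and 2.49 FPKM under the KO and WT labels, and *COX4I2*, in mammals the isoform induced at low oxygen, 0.8 and 1.6 FPKM under the KO and WT labels. One gene was higher by over 1.4-fold, the lesser of 2 genes under COX5B (ENSDARG00000068738), at 1.51 FPKM under the KO label and 0.94 FPKM under the WT label. *COX5A* (ENSDARG00000099663) had 47.9 FPKM under the KO label and 44.2 FPKM under the WT label. The more abundant gene of the COX5A pair, *cox5aa*, had the opposite direction, at 88.7 and 95.6 FPKM under the KO and WT labels.

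In the complex IV families below, the same isoform was the most abundant in both libraries. *COX4I1* made up 99.0% of the FPKM of the COX4 genes under the KO label and 98.7% under the WT label. The main *COX5B* gene (ENSDARG00000015978) made up 98.6% of the COX5B pair under the KO label and 99.3% under the WT label, and *cox6a1* 98.8% and 99.2% of its pair with the second COX6A1 gene (ENSDARG00000054588; 2.30 FPKM under the KO label, 1.72 FPKM under the WT label). *COX7A2* made up 99.4% of its pair with *cox7a1*, in mammals a muscle isoform, under the KO label and 99.55% under the WT label. For *cox6b2* the share in its pair with *cox6b1* was 98.7% under the KO label and 98.5% under the WT label. In complex V, the ratio between *atp5mea* and *atp5meb*, which encode the same small membrane subunit, differed more, with *atp5mea* at 60.9% of the pair under the KO label and 50.1% under the WT label. Copies may share reads, so the split within a pair is uncertain. The members under 1 FPKM in both libraries were *cox4i1l*, *cox7a1*, *ndufa4b*, *NDUFA4L2*, *ndufa4l2b* and a second SDHD gene (ENSDARG00000055712). *ndufa4l2b* was listed at 0.01 FPKM under the KO label, the smallest value of the table, and at 0.73 FPKM under the WT label.

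In complex V, the 5 subunits of the F1 head, where ATP is made, had a median log2 ratio of -0.04. *ATP5F1A* had 439 FPKM under the KO label and 452 FPKM under the WT label, and *ATP5F1B*, the catalytic beta subunit, had 359 FPKM under the KO label and 376 FPKM under the WT label. The gene of the epsilon subunit, *atp5f1e*, had the opposite direction, at 147 FPKM under the KO label and 119 FPKM under the WT label. The c ring, which turns as protons pass, had a median of -0.14 over 3 genes, with *atp5mc3b* at 404 FPKM under the KO label and 445 FPKM under the WT label and *ATP5MC3* at 76.8 and 69.1 FPKM under the KO and WT labels. The peripheral stalk, which holds the head still, had a median of -0.13 over 4 genes. Of these, 3 were below 0, where 52.2% of all genes at 1 FPKM or more lay. The 1 above 0, *ATP5PO*, had 185 FPKM under the KO label and 169.8 FPKM under the WT label.

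The 6 genes of small membrane subunits had a median of -0.40, and all were below 0, where 52.2% of all genes at 1 FPKM or more lay. *atp5meb* (ENSDARG00000068940) had 61.1 FPKM under the KO label and 118 FPKM under the WT label. *atp5mj* (ENSDARG00000092873) had 59.6 FPKM under the KO label and 114 FPKM under the WT label. Their log2 ratios of -0.95 and -0.94 were the lowest of the nuclear complex V genes. The membrane part of complex V also holds *mt-atp8* and *MT-ATP6*, at -1.21 and -1.20, and the c ring, with a median of -0.14. Among the 6 small membrane genes, *ATP5MG* was the nearest to 0, at -0.10. *atp5md* had 53.2 FPKM under the KO label and 74.55 FPKM under the WT label. It lay at the 1.4-fold line, just inside it only because of the pseudocount of 0.1 FPKM. The inhibitor genes, whose proteins stop the enzyme from splitting ATP, had log2 ratios of -0.23 and -0.52. Of the 2, 1 was over 1.4-fold lower, where 17.5% of all genes at 1 FPKM or more were. *atp5if1a*, the most abundant nuclear member, had 489 FPKM under the KO label and 575 FPKM under the WT label and was inside 1.4-fold. *atp5if1b* had 22.9 FPKM under the KO label and 32.9 FPKM under the WT label. These parts were compared after their values were known.

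**Figure D5:**
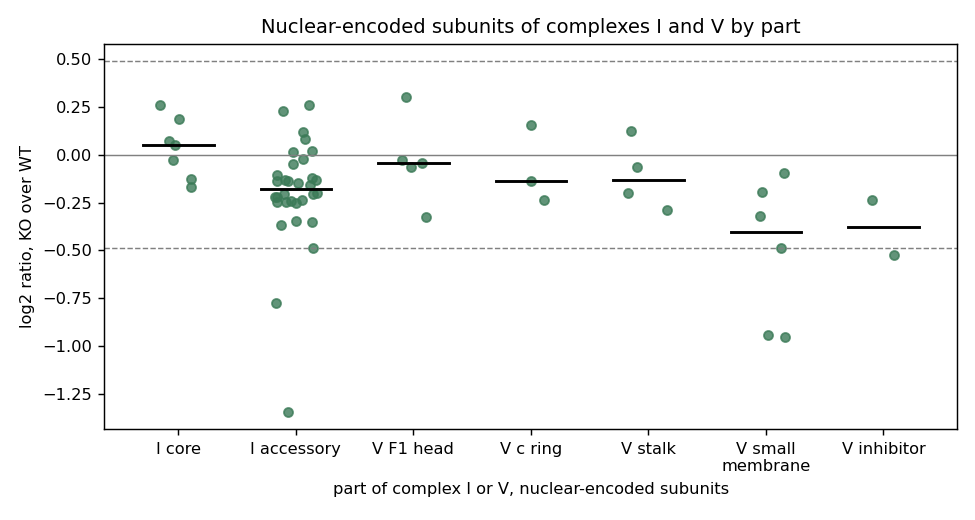
Log2 ratio of KO over WT (vertical axis) of the nuclear-encoded subunits of complexes I and V at 1 FPKM or more, by part of the complex. Points are genes, black lines medians and dashed lines 1.4-fold. The core of complex I and the F1 head of complex V lie around 0 (medians 0.05 and -0.04), and the small membrane subunits of complex V lie lower (median -0.40).

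Other genes of respiration were taken from lists by function, whose shares are to be read against all genes at 1 FPKM or more, of which 17.5% were over 1.4-fold lower, 15.1% higher and 52.2% below 0. Of 45 measured assembly factors, which build the complexes and are not part of them, 10 were over 1.4-fold lower (22.2%, against 17.5% of all genes) and none higher (against 15.1%), with a median log2 ratio of -0.20, close to that of the nuclear subunits. The farthest was *taco1*, in mammals a translational activator of *MT-CO1*, at 1.37 FPKM under the KO label and 13.4 FPKM under the WT label. *SDHAF3*, for complex II, had 4.12 FPKM under the KO label and 9.93 FPKM under the WT label. Electron carriers, quinone synthesis and nucleotide exchange had a median of -0.02 over 21 genes, with 2 lower and 2 higher. *COQ9*, for the synthesis of coenzyme Q, had 4.56 FPKM under the KO label and 31.3 FPKM under the WT label, and *PDSS2*, which makes its side chain, had 8.52 FPKM under the KO label and 18.1 FPKM under the WT label. The 2 higher genes were *ETFDH* and a gene under COQ8A (ENSDARG00000032426). They had 10.4 and 16.9 FPKM under the KO label and 5.39 and 9.6 FPKM under the WT label. The 20 genes of the citric acid cycle and pyruvate entry had a median of 0.02, with 2 lower and none higher. These were *IDH3A*, at 34.3 FPKM under the KO label and 63.4 FPKM under the WT label, and *SUCLG2*, at 6.58 FPKM under the KO label and 9.68 FPKM under the WT label.

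Genes that copy, read and keep the mitochondrial genome and its RNA were also measured. Of 15 genes of mitochondrial DNA replication and transcription, 5 were over 1.4-fold lower (33.3%, against 17.5% of all genes) and 1 higher (6.7%, against 15.1%), with a median of -0.12. *TFB1M*, which methylates the small ribosomal RNA of mitochondria, had 2.36 FPKM under the KO label and 6.41 FPKM under the WT label. *POLG2*, the accessory subunit of the mitochondrial DNA polymerase, had 3.15 FPKM under the KO label and 5.52 FPKM under the WT label, and the helicase gene *TWNK* had 16.0 and 24.0 FPKM under the KO and WT labels. *POLRMT*, the mitochondrial RNA polymerase, had the opposite direction, at 16.1 FPKM under the KO label and 14.1 FPKM under the WT label, and *TFAM*, which packs and helps to transcribe the genome, had 15.0 FPKM under the KO label and 16.3 FPKM under the WT label. The 1 gene over 1.4-fold higher was *top1mt*, at 53.4 FPKM under the KO label and 37.4 FPKM under the WT label. None of the 18 genes of mitochondrial RNA processing and stability passed 1.4-fold, and their median was 0.00. The farthest were *PRORP*, which cuts precursors at tRNAs, at 13.1 FPKM under the KO label and 10.2 FPKM under the WT label, and *FASTKD1* at 9.66 and 7.86 FPKM under the KO and WT labels. The 13 regulators of mitochondrial biogenesis had a median of -0.05, with 1 lower (*CREB1*, 1.88 FPKM under the KO label and 3.38 FPKM under the WT label) and 1 higher (*esrrb*, 1.86 and 0.64 FPKM under the KO and WT labels). *NRF1*, named for its role at the promoters of respiratory genes, had 32.8 FPKM under the KO label and 29.15 FPKM under the WT label.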

How the data were processed

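Ovary RNA was pooled into 1 library per genotype by the authors. The deposited table holds FPKM values per gene, with 2 decimals and a smallest value of 0.01. The submitters' processing notes name HISAT, Bowtie2, RSEM and the build GRCz10, without versions. Both value columns were tied to a sample by their names. Read counts are not in the table, so no counting interval was attached.

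Symbols were found for 20336 of 22328 gene IDs, and the members were matched on these without regard to case. Nuclear subunits under other names were not counted as members. One of these, the complex III gene *CYC1*, was counted with the electron carriers. It had 91.4 FPKM under the KO label and 92.6 FPKM under the WT label. Names in related lists were matched exactly, otherwise with or without a closing a or b. The order of the mitochondrial genes came from RefSeq (GRCz12tu), used for neighbours only. Log2 ratios of KO over WT used a pseudocount of 0.1 FPKM, and a gene entered where at least 1 library reached 1 FPKM. Counts and medians of members were set beside the same over all genes, with no test, since each group has 1 library. The counting was tested on simulated data. Genes named are all mitochondrial members, all SDH genes, per complex the 3 most abundant, the 3 lowest and the 3 highest in ratio, members under 1 FPKM, members sharing a symbol, the 2 farthest of each related list and *sox3*. The others were chosen after their values were seen. Members and lists were chosen with earlier results of these data known. Alternatives were pseudocounts of 0.01 and 1 FPKM, other scalings and a centring, other filters and thresholds, means, symbols of 1 gene, and leaving out names of uncertain membership. The classes by level, the core and accessory split and the parts of complex V were set after the values were seen. Python 3.11.15, numpy 2.4.6, pandas 2.3.3 and matplotlib 3.10.9 were used.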

Additional observations from a re-analysis of the deposited data

How the results depend on the processing

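A median was taken as unmoved within 0.1 on the log2 scale if its sign was kept, and a count within 1.5 times. Of 110 comparisons of a result with an alternative, 101 stayed within these limits, 6 moved and 3 changed sign. The median of the nuclear complex III subunits, -0.02 as reported, was 0.01 with median of ratios scaling (0.0077), 0.01 with equal FPKM sums over nuclear genes (0.0137) and 0.0209 as a mean. At 2-fold or more, 2 mitochondrial genes and 1 nuclear gene were lower and 0 nuclear genes higher. *COX4I2*, at 0.8 FPKM under the KO label and 1.6 FPKM under the WT label, was left out of this count only by the pseudocount. The count of 2 higher nuclear genes was 1 with a pseudocount of 1 FPKM, 1 at 5 FPKM or more and 1 over symbols of 1 gene, each of which drops or shrinks the low COX5B gene. Centring on genes of 20 to under 500 FPKM was added after the data were seen. No paired analysis was possible because each group has 1 library, and for the same reason no replicate could be left out.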

Other observations

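Glycolysis makes ATP outside the mitochondria. Its 19 genes at 1 FPKM or more had a median log2 ratio of -0.03, with 2 over 1.4-fold lower (10.5%, against 17.5% of all genes at 1 FPKM or more) and 3 higher (15.8%, against 15.1%). *LDHA*, which makes lactate, had 44.6 FPKM in the library labelled KO and 21.2 FPKM in the library labelled WT, and one gene under ENO1 had 1.4 FPKM under the KO label and 0.45 FPKM under the WT label. One gene of triose phosphate isomerase, *TPI1*, had the opposite direction, at 83.4 FPKM under the KO label and 159.8 FPKM under the WT label.

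Of 25 genes of mitochondrial import and the outer membrane, 3 were over 1.4-fold lower (12.0%, against 17.5% of all genes at 1 FPKM or more) and 1 higher (4.0%, against 15.1%). Their median was -0.14, and 18 were below 0 (72.0%, against 52.2% of all genes). *TIMM17B*, of the inner membrane import channel, was listed at 0.01 FPKM under the KO label and at 2.08 FPKM under the WT label, and *timm23b*, of the same channel, had 2.38 FPKM under the KO label and 9.51 FPKM under the WT label. Their more abundant relatives *TIMM17A* and *timm23a* had 60.6 and 57.5 FPKM under the KO label and 76.2 and 64.3 FPKM under the WT label. The porin genes *VDAC1* and *VDAC2* differed little, at 128 and 126 FPKM under the KO label and 127 and 129.5 FPKM under the WT label, and the chaperone gene *HSPA9* had 146 FPKM under the KO label and 89.1 FPKM under the WT label.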
